A study of Mus musculus with 9 samples.

Results

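The miR-142 hairpin and miR-223 are miRNA genes of the blood lineages, and 3 of their mature products, mmu-miR-142-3p, mmu-miR-142-5p and mmu-miR-223-3p, were followed through RNA-IPs of Sfpq and Ago2. They were chosen by exact name and make up 3 of the 575 mature miRNAs in the deposited tables, which list 2049 small RNAs. Small RNAs were sequenced from 3 Sfpq RNA-IP, 3 Ago2 RNA-IP and 3 input libraries of mouse cells, 9 in all, with no genotype or treatment given in the labels. In an RNA-IP, an antibody brings a protein down from a cell extract and the RNA that comes with it is purified, and the input stands for the extract itself. Sfpq, a nuclear RNA-binding protein of paraspeckles, has 2 antibodies in its sample labels (Ab38148 and B92), and Ago2, the Argonaute protein that carries miRNAs, has the clone 2D4. The labels give these under an antibody tag named for HITS-CLIP, a crosslinking assay, and how the 2 Sfpq antibodies were used in the RNA-IP is not given in the sources used here. The labels name RAW 264.7 cells, a macrophage-like line, but also a stem cell source, and the design text names P19 cells, an embryonal carcinoma line. For both RNA-IPs, the text of the study gives RAW 264.7. No RNA-IP with a control antibody is among these libraries, so RNA that any pull-down would bring down cannot be told apart from RNA held by Sfpq or Ago2.

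A miRNA is cut from a hairpin that has a 5p and a 3p arm. One arm is usually kept in an Argonaute protein as the guide, which finds its targets through the seed (bases 2 to 8), while the other, the passenger, is mostly degraded. miR-142 is made in nearly all blood cells and is unusual in that both of its arms are known as guides. miR-223 is a hallmark of the myeloid lineage, known from granulocytes and macrophages, with the 3p arm as its usual guide.

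The mature sequences are given because the arms of one hairpin are compared throughout, and because each arm has its own seed and thus its own targets. The seed is in capitals, and the sequences are those of RefSeq on GRCm38.p6, where the miR-142 arms are named miR-142a.
miR-142-5p: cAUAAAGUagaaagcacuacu
miR-142-3p: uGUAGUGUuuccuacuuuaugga
miR-223-3p: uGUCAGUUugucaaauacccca
miR-223-5p: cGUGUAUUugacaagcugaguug

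The miR-142 hairpin lies on the plus strand of chromosome 11 (chr11:87756864-87756927). It sits in the intron between exons 1 and 2 of the lincRNA Mir142hg, with miR-142-5p at chr11:87756867-87756887 and miR-142-3p at chr11:87756903-87756925. A further miRNA gene, Mir142b, is annotated over it on the opposite strand, and its product was not analysed here. The miR-223 hairpin lies on the plus strand of chromosome X (chrX:96242817-96242926), in exon 3 of the non-coding transcript F630028O10Rik-201, with miR-223-3p at chrX:96242884-96242905. Both 3p arms begin with U and both 5p arms with C. The miR-142 arms had a low GC content, 33.3% in 5p and 34.8% in 3p, against 40.9% in miR-223-3p. Among 1679 mature mouse miRNAs of the RefSeq table, no other had the seed of any of the 3 members.

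Each value below is a signal, the authors' mean over the 3 libraries of a group after scaling, and the input was scaled anew in the table of each RNA-IP. With 1 value per group there is no spread between libraries and no test, so no difference below can be set against replicate error, and "above" and "below" describe the deposited means only. Over 798 small RNAs at an input of at least 20 in both tables, the median ratio of the Ago2 table's input to the Sfpq table's was 1.14. This ratio was 1.13 for both miR-142 arms and 1.15 for miR-223-3p. The lowest values show what 1 read was worth in each library. On these weights a signal of 20 stood for about 68.5 reads in the Sfpq RNA-IP, against 59.3 in its input, and for 78.5 reads in the Ago2 RNA-IP, against 51.9 in its input. Intervals given with ratios and shares are 95% exact binomial (Clopper-Pearson) intervals on such read estimates, which cover counting error only.

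The cells carried blood miRNAs. Of a list of 11 blood lineage miRNAs, the 3 members among them, 10 were in each table and none of these was at 0 in the input. The lowest of these, miR-155-3p, had an input of only 1.11 in the Sfpq table and 1.21 in the Ago2 table. Of 10 miRNAs of pluripotent stem cells, 2 were in the Sfpq table and 1 in the Ago2 table, all at 0 in the input. Markers of other tissues were also found. Of 6 epithelial miRNAs, 6 were in the Sfpq table with 1 of them at 0 in the input, and 5 were in the Ago2 table with none at 0. In the Sfpq table miR-200c-3p (382) and miR-141-3p (115) had more input signal than miR-223-3p (90.2). By summed input signal, the blood list held 6.07% of the mature miRNA signal in both tables, and the epithelial list 0.00963% in the Sfpq table and 0.00966% in the Ago2 table. Most of the blood list's input signal was miR-21a-5p, with 235118 of 331608 in the Sfpq table and 265164 of 374651 in the Ago2 table. The share of the blood list is therefore mainly that of miR-21a-5p and not of the 3 members. The lists were not used to name the cells. By level the 3 members were far apart. miR-142-5p ranked 61 among the mature miRNAs of the input in both tables and held 0.0697% of their summed signal in the Sfpq table and 0.0698% in the Ago2 table, miR-142-3p ranked 110 with 0.0137%, and miR-223-3p ranked 209 in the Sfpq table (0.00165%) and 208 in the Ago2 table (0.00167%). In the Sfpq RNA-IP the 2 arms of miR-142 were in the other order, at rank 75 for 3p and 81 for 5p among 549, and miR-223-3p was at rank 186. In the Ago2 RNA-IP miR-142-5p was at rank 55, miR-142-3p at 92 and miR-223-3p at 171 among 548.

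**Figure D1:**
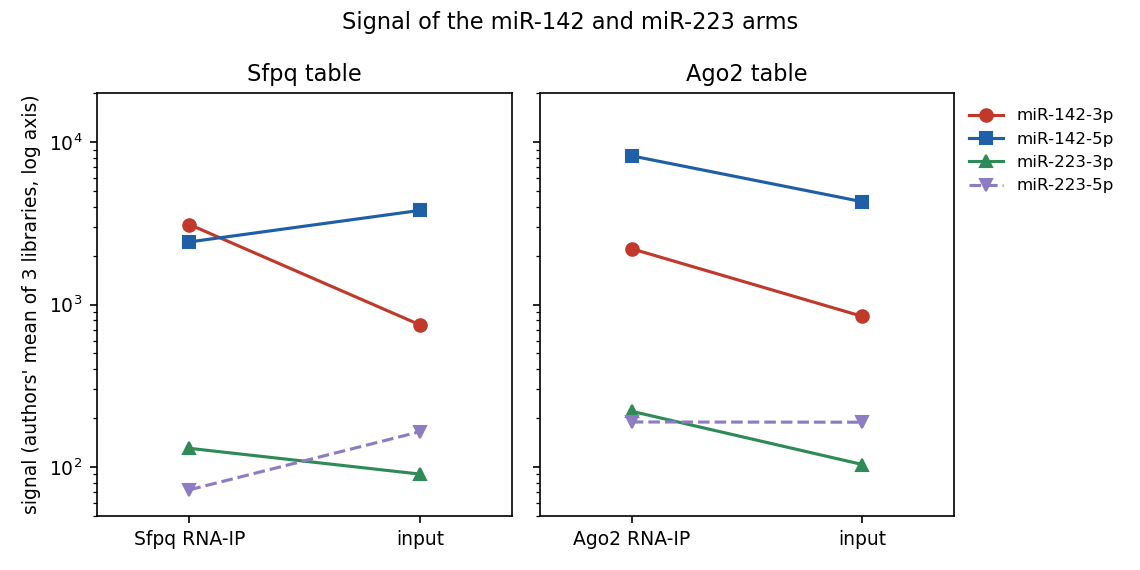
Signal of the miR-142 and miR-223 arms in each RNA-IP and in the input of the same table, on a log axis. Each point is the authors' mean over 3 libraries and the lines join the 2 groups of a table. The arms of miR-142 cross in the Sfpq table (3116 for 3p and 2433 for 5p in the RNA-IP), whereas both are above input in the Ago2 table.

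To see what came down with Sfpq, its RNA-IP was set against the input. miR-142-3p had a signal of 3116 in the Sfpq RNA-IP, against 750 in its input, a log2 ratio of 2.05 (counting interval 1.99 to 2.12). Only 11 of the 289 mature miRNAs at a mean signal of at least 20 in both tables had a higher ratio. miR-142-5p lay on the other side of the input, with 2433 in the Sfpq RNA-IP, against 3807 in its input, a log2 ratio of -0.65 (-0.69 to -0.60), and 61 of the 289 were lower. miR-223-3p had 130 in the Sfpq RNA-IP, against 90.2 in its input, a log2 ratio of 0.53 (0.30 to 0.75), near the median of 0.43 of the 289. Past a 2-fold difference there was thus 1 member above input and none below, beside 23.6% of 297 mature miRNAs above and 16.2% below.

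These ratios depend on the scaling. The mature miRNAs summed to more in each RNA-IP than in its input, and as shares of that sum the Sfpq ratios were 1.24 for miR-142-3p, -1.46 for miR-142-5p and -0.29 for miR-223-3p. The last of these has the other sign from the ratio of the deposited values, so no direction is given for miR-223-3p in the Sfpq RNA-IP. With the median of all small RNAs as 0, the Sfpq ratio of miR-142-5p was -0.071, close to the input. How far miR-142-5p lay below input with Sfpq thus also depends on the scaling.

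In the Ago2 RNA-IP all 3 members were above input. miR-142-5p had the highest signal, 8252 in the Ago2 RNA-IP, against 4307 in its input, with a log2 ratio of 0.94 (0.91 to 0.97). miR-142-3p gave a signal of 2208 in the Ago2 RNA-IP, against 846 in its input, with a ratio of 1.38 (1.32 to 1.45), and 33 of the 289 were higher. miR-223-3p gave a signal of 220 in the Ago2 RNA-IP, against 103 in its input, with a ratio of 1.09 (0.89 to 1.29) on about 863 reads in the RNA-IP and 268 in the input. The median of the 289 was 0.48, and all 3 members lay above it. Past 2-fold were 2 of the 3, beside 23.8% of 302 mature miRNAs, with miR-142-5p just under. As shares of the mature miRNA signal the Ago2 ratios were 0.75 for miR-142-3p, 0.30 for miR-142-5p and 0.45 for miR-223-3p, each past 0 but none past 2-fold.

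**Figure D2:**
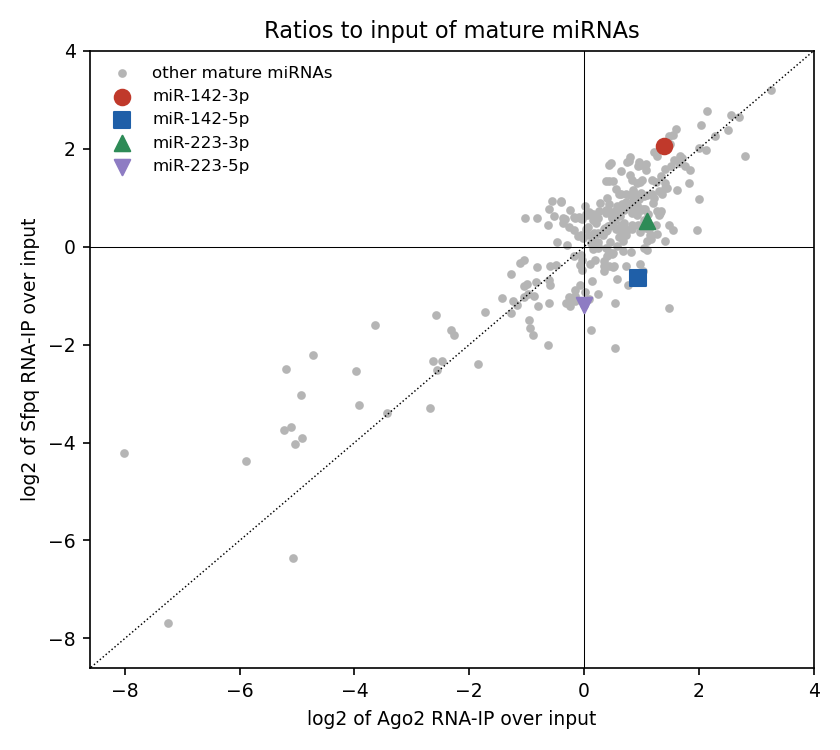
Log2 ratio to input of 289 mature miRNAs with Sfpq (y axis) and with Ago2 (x axis), with the miR-142 and miR-223 arms marked and the dotted line where both are equal. Both ratios rest on the same input libraries. On the deposited scaling, miR-142-5p lies at -0.65 with Sfpq and 0.94 with Ago2, on opposite sides of the input.

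The difference of the Sfpq and the Ago2 log2 ratio, each over the input of its own table, sets the RNA-IPs side by side. For miR-142-5p it was -1.58, lower with Sfpq than with Ago2, and 5 of the 289 mature miRNAs had a lower value. Those were miR-664-5p, miR-1943-5p, miR-1965, miR-501-3p and miR-92b-3p, named after their values were seen. Their signals in the Sfpq RNA-IP were, in this order, 258, 22.6, 28.4, 40.8 and 161, all far under the 2433 of miR-142-5p. For miR-142-3p the difference was 0.67, or 1.59-fold higher with Sfpq, and 47 of the 289 were higher. For miR-223-3p it was -0.56, with 60 of the 289 lower. The median of all 289 was 0.01, and its quartiles were -0.47 and 0.45. So miR-142-5p alone of the 3 members was past 2-fold, on the low side, beside 8.3% of the 289. Set directly, without the input, the signals of miR-142-5p were 2433 with Sfpq and 8252 with Ago2, those of miR-142-3p were 3116 with Sfpq and 2208 with Ago2, and those of miR-223-3p were 130 with Sfpq and 220 with Ago2.

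The arm ratio was then taken within each group, since 2 arms of a hairpin share its transcript and a scaling factor common to the group cancels. How the 3 libraries of a group were weighted against each other can still enter the ratio, and the pooled values cannot show this. In the Sfpq RNA-IP the 3p arm made up 56.2% of the miR-142 signal (counting interval 55.4% to 56.9%), against 16.5% (15.8% to 17.1%) in the input of that table. In the Ago2 RNA-IP it made up 21.1% (20.7% to 21.5%), against 16.4% (15.8% to 17.1%) in the input. The miR-142-5p signal was thus 0.781 times that of miR-142-3p with Sfpq, 3.74 times with Ago2, 5.07 times in the Sfpq input and 5.09 times in the Ago2 input. As a log2 shift of 5p over 3p from the input, this was -2.70 with Sfpq and -0.45 with Ago2. The 2 arms together had 5549 in the Sfpq RNA-IP, against 4557 in its input, a log2 ratio of 0.28, and 10460 in the Ago2 RNA-IP, against 5153 in its input, a ratio of 1.02. The hairpin as a whole was therefore close to its input with Sfpq, on the deposited scaling, while its arms lay on opposite sides of it.

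These shifts were placed among the 67 hairpins that had both arms at a mean of at least 20 in both tables. In the Ago2 RNA-IP miR-142 had 24 hairpins lower and 42 higher, and its shift was under 2-fold, beside 20.9% of the 67 past 2-fold towards 5p and 31.3% towards 3p. In the Sfpq RNA-IP 6 hairpins had a lower shift, beside 26.9% of the 67 past 2-fold in each direction. The median shift was 0.04, with quartiles of -1.07 and 1.21, so that arm shifts of this direction were common but mostly smaller. In the difference between Sfpq and Ago2, which was -2.25, miR-142 was second lowest of the 67 after miR-210 (-2.61), beside 7.46% past 2-fold on that side and 10.4% on the other. It was also second lowest among the 41 hairpins with a minimum of 100, and at place 5 of 125 with no minimum.

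The hairpins at the far ends of the Sfpq shift were also compared by which arm the input held. Lowest were miR-326 (-4.90), miR-27a (-4.87), miR-210 (-3.71) and miR-23a (-3.68), each with more 3p than 5p already in the input. For miR-23a the 5p arm had 11.3 in the Sfpq RNA-IP, against 106 in its input. Highest were miR-340 (3.47), miR-1843b (3.41), miR-1839 (3.10) and miR-1843a (2.63), each with more 5p than 3p in the input. In all 8 the arm favoured with Sfpq was the one already higher in the input, whereas in miR-142 it was the lower one. This was not particular to miR-142, since 9 of the 67 hairpins (13.4%) had a Sfpq shift past 2-fold towards the arm that was lower in the input, 7 of them towards 3p. Named after their values were seen, these 7 were miR-142 (-2.70), miR-99b (-2.08), miR-3096b (-1.78), miR-223 (-1.72), miR-15a (-1.55), miR-5117 (-1.08) and miR-21a (-1.06). With Ago2 the count was 8 (11.9%), and miR-142 was not among them. The higher arm was a different one in the Sfpq RNA-IP and the input for 4 of the 67 hairpins, miR-142, miR-223, miR-30b and miR-450b, or 5.97% of them. In the Ago2 RNA-IP it was so for 2, miR-223 and miR-30b. The hairpins miR-30b and miR-450b, named after their values were seen, had 5p as the higher arm in the Sfpq RNA-IP, and miR-142 and miR-223 had 3p there.

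**Figure D3:**
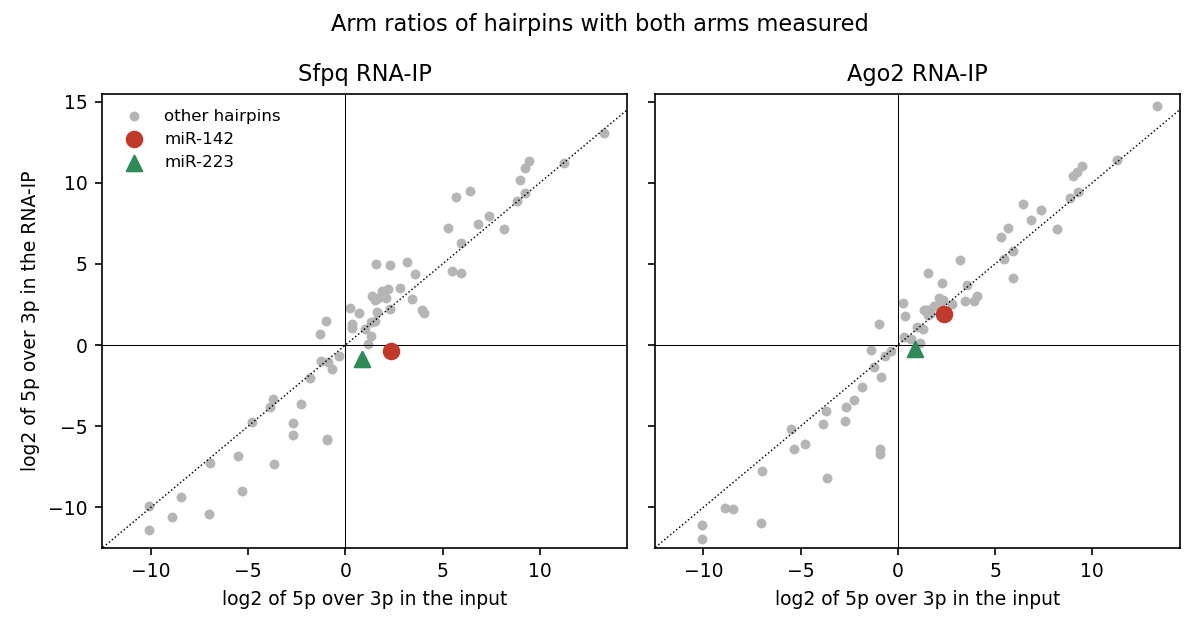
Log2 of 5p over 3p signal in each RNA-IP (y axis) against the input of the same table (x axis) for 67 hairpins, with the dotted line where the ratio is the same. miR-142 lies on the line's lower side at -0.36 against 2.34 with Sfpq, below 0, and at 1.90 against 2.35 with Ago2, near the line.

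The other arm of the miR-223 hairpin, miR-223-5p, was added for the same comparison. It had 72.2 in the Sfpq RNA-IP, against 165 in its input (log2 ratio -1.19), and 189 in the Ago2 RNA-IP, against 188 in its input (0.00). In the input this arm was the higher one, with 1.82 times the signal of miR-223-3p in both tables, although 3p is the known guide. The 3p arm made up 64.3% of the miR-223 signal in the Sfpq RNA-IP (counting interval 60.6% to 67.9%), against 35.4% (32.0% to 39.0%) in the input. In the Ago2 RNA-IP it made up 53.8% (51.3% to 56.2%), against 35.4% (32.0% to 38.9%) in the input. The shift of 5p over 3p from the input was -1.72 with Sfpq and -1.08 with Ago2, so that miR-223 was shifted towards 3p in both RNA-IPs, past 2-fold in each, beside 26.9% of hairpins with Sfpq and 31.3% with Ago2. With Ago2 it was only just past 2-fold, at -1.02 with a pseudocount of 10. No counting interval was computed for the shift itself. The difference between the RNA-IPs was -0.63 and 10 of the 67 were lower.

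The members were also set beside the classes of first base and arm. Of the 289 mature miRNAs 248 were matched to a RefSeq sequence, and the median difference of Sfpq and Ago2 was 0.06 for the 55 that begin with C, as miR-142-5p does, and 0.08 for the 98 that begin with U, as both 3p arms do. Over input, the median log2 ratio with Sfpq was 0.62 for U, 0.44 for C, 0.27 for A and -0.10 for G, and with Ago2 it was 0.60 for U, 0.27 for C, 0.52 for A and 0.08 for G. The part of first base or arm in the members' ratios was not tested. By name, the median difference of Sfpq and Ago2 was 0.03 for 134 5p arms and -0.06 for 126 3p arms. In 6 bases in a row, the seed of miR-142-5p overlapped that of miR-340-5p and miR-6343, and the seed of miR-223-3p that of miR-344f-5p and miR-217-3p. Of these 4 only miR-340-5p was at a mean of at least 20. It holds bases AUAAAG of the miR-142-5p seed and is shown because the 2 could share part of their targets while their ratios differed.
miR-340-5p: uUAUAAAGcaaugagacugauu
This miRNA, at chr11:50069720-50069741 on the plus strand, had 11639 in the Sfpq RNA-IP, against 2205 in its input (log2 ratio 2.40), and 7589 in the Ago2 RNA-IP, against 2503 in its input (1.60). It was thus above input with both proteins, whereas miR-142-5p had -0.65 and 0.94.

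The mature miRNAs most like each member were found by their distance in the 2 log2 ratios, among the other 288. Nearest to miR-142-3p were miR-450b-5p (2.10 with Sfpq and 1.49 with Ago2), miR-9-5p (1.93 and 1.21) and miR-101b-3p (2.26 and 1.47). Nearest to miR-142-5p were miR-10b-5p (-0.49 and 1.02), miR-1249-3p (-0.78 and 0.77) and miR-10a-5p (-0.36 and 0.98). Of these miR-10a-5p, encoded in the Hox clusters like miR-10b-5p, was abundant, with 24163 in the Sfpq RNA-IP, against 31022 in its input, and 69729 in the Ago2 RNA-IP, against 35304 in its input. Nearest to miR-223-3p were miR-1968-5p, miR-378a-3p and miR-532-5p, at 0.54, 0.66 and 0.37 with Sfpq and 1.05, 1.11 and 1.08 with Ago2. The distances ran from 0.04 (miR-1968-5p) to 0.29 (miR-10a-5p) on the log2 scale.

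The blood list, which holds the 3 members beside other blood miRNAs, was set against all mature miRNAs. Of the 9 of the list at a mean of at least 20, 2 were above input past 2-fold with Sfpq, miR-142-3p and miR-146b-5p (1.07), and 2 were below, miR-223-5p and miR-342-3p (-1.10), at a median of 0.53, beside 23.6% of mature miRNAs above and 16.2% below and a median of 0.43 over the 289. With Ago2, 4 were above, miR-142-3p, miR-223-3p, miR-146a-5p (1.09) and miR-146b-5p (1.36), and none below, at a median of 0.94, beside 23.8% of mature miRNAs above and 11.3% below and a median of 0.48. The list medians were the members' own values, that of miR-223-3p with Sfpq and that of miR-142-5p with Ago2. Apart from the members and the 2 miR-146 miRNAs, the Ago2 ratios were 0.49 (miR-21a-5p), 0.00 (miR-223-5p), -0.10 (miR-155-5p) and -0.16 (miR-342-3p). miR-146a-5p, a brake on inflammatory signalling, had 44152 in the Sfpq RNA-IP, against 46207 in its input, and 112469 in the Ago2 RNA-IP, against 52710 in its input. Its difference of Sfpq and Ago2, -1.16, was, after that of miR-223-5p (-1.19), the nearest on the list to that of miR-142-5p. miR-155-5p, induced in activated macrophages, was at 0.61 with Sfpq and -0.10 with Ago2, and its difference of 0.71 was close to the 0.67 of miR-142-3p. miR-21a-5p was at 0.59 and 0.49, and miR-155-3p, the listed miRNA under that minimum, was at 0 in the Sfpq RNA-IP, against 1.11 in its input, and at 1.04 in the Ago2 RNA-IP, against 1.21 in its input.

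**Figure D4:**
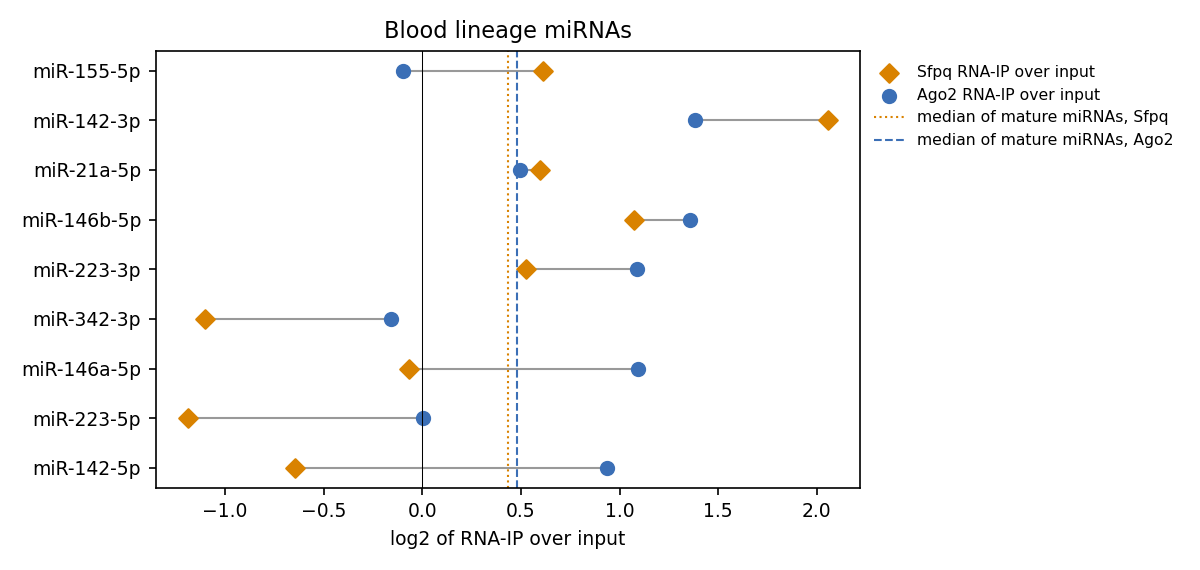
Log2 ratio to input with Sfpq (diamonds) and with Ago2 (circles) for the 9 blood lineage miRNAs at a mean of at least 20, ordered by the difference of Sfpq and Ago2, with the medians of 289 mature miRNAs as vertical lines. miR-142-5p has the lowest difference (-1.58) and its partner miR-142-3p the second highest (0.67), after miR-155-5p (0.71).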

How the data were processed

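Sequencing was done on a SOLiD instrument per the study's methods, and LifeScope and the omiRas webserver are both named for mapping. The submitters' processing notes name cutadapt and mm10. The authors deposited 2 tables with 1 signal per small RNA and group, pooled over libraries. All values under 2 (364 to 445 per RNA-IP, 366 and 396 in the input) were sums of whole multiples of 3 weights within 0.0005, as a mean of 3 libraries' scaled reads gives. Reads were estimated from these weights with equal levels in the 3 libraries. The depth of single libraries is unknown. Further columns and 3 lists hold the authors' log2 ratios, p-values, false discovery rates and selections, and were not used.

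Ratios were recomputed with Python 3.11.15, pandas 2.3.3, NumPy 2.4.6 and SciPy 1.17.1, with no pseudocount, and scripts were tested on simulated data. Members and lists (blood lineage, erythroid, pluripotent, neuronal, muscle, liver, epithelial) were chosen with earlier results of these data known. Described in full were the members and miR-223-5p, the 3 nearest miRNAs of each member by both ratios, list members at a mean of at least 20, and the 4 hairpins with the lowest and the highest Sfpq arm shift. Alternatives were pseudocounts of 1 and 10, 3 scalings, minimum means of 100 or none, and the other table's input. GENCODE gave the host genes, on the same build as mm10.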

Additional observations from a re-analysis of the deposited data

How the results depend on the processing

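Of 70 alternative values 38 stayed within the counting interval, or within 1.5 times for counts, and 32 moved. Pseudocounts and the other table's input moved none of the ratios or arm shifts. Scaling moved every ratio to input. With the median of all small RNAs as 0 (that median was -0.95 with Ago2, -0.57 with Sfpq), the values were, for miR-142-3p, miR-142-5p and miR-223-3p in this order, 2.33, 1.89 and 2.04 with Ago2 and 2.63, -0.071 and 1.10 with Sfpq. Centring on the median of mature miRNAs (0.49 and 0.44) gave 0.89, 0.44 and 0.59 with Ago2, and 1.62, -1.08 and 0.091 with Sfpq. Shares of the mature miRNA signal gave 0.75, 0.30 and 0.45 with Ago2, and 1.24, -1.46 and -0.29 with Sfpq, the last with a changed sign. The difference of Sfpq and Ago2 became 0.50 for miR-142-3p and -1.76 for miR-142-5p from the deposited signals alone, and 0.49 and -1.76 from shares. Of the counts of mature miRNAs past 2-fold, the 72 above input with Ago2 became 25 when centred on mature miRNAs, and the 34 below became 67 with no minimum, 17 at a mean of 100 and 53 when centred. With Sfpq the 70 above became 41 when centred, and the 48 below became 81 with no minimum and 23 at 100. Of hairpins with a Sfpq arm shift past 2-fold, the 18 towards 5p became 8 at 100 and 33 with no minimum, and the 18 towards 3p became 43 with no minimum. The miR-223 arm shifts under alternatives were added after seeing the data. No paired analysis was possible because the tables hold 1 pooled value per group, and for the same reason no replicate could be left out. Depth limits miR-223-3p most, with about 268 input reads.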

Other observations

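Markers of other tissues gave few measurable miRNAs. Of the epithelial list, miR-141-3p had 113 in the Sfpq RNA-IP, against 115 in its input, and 269 in the Ago2 RNA-IP, against 131 in its input, and miR-200c-3p had 479 in the Sfpq RNA-IP, against 382 in its input, and 566 in the Ago2 RNA-IP, against 433 in its input. The third of them, miR-200a-3p, was near the minimum, with 12.4 in the Sfpq RNA-IP, against 16.1 in its input, and 27.9 in the Ago2 RNA-IP, against 17.6 in its input. Of the neuronal list, miR-9-5p had 315 in the Sfpq RNA-IP, against 82.6 in its input, and 217 in the Ago2 RNA-IP, against 93.6 in its input. Of the erythroid list, miR-486-5p had 45.0 in the Sfpq RNA-IP, against 27.8 in its input, and 79.2 in the Ago2 RNA-IP, against 31.7 in its input. The muscle list summed to 0.767 in the Sfpq RNA-IP, against 0.751 in its input, and to 2.73 in the Ago2 RNA-IP, against 0.892 in its input, the pluripotent list to 3.55 with Sfpq and 0.931 with Ago2, and of the liver list 0 of 1 miRNA was matched in either table.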
